A study of Mus musculus with 15 samples.

Results

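Cyclic AMP and cyclic GMP are second messengers whose level in a cell is set by the enzymes that make and break them. Adenylyl cyclases (Adcy genes) make cyclic AMP from ATP under the control of G proteins, calcium and calmodulin, and phosphodiesterases (Pde genes) hydrolyse cyclic AMP, cyclic GMP or both. In cortical neurons the pathway is known for relaying dopamine, noradrenaline and calcium signals to protein kinase A and to transcription factors of the CREB family.

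These genes were followed in single-cell RNA sequencing of the prefrontal cortex (PFC) of male C57BL/6N mice. The members were all genes whose symbol is Adcy followed by a number only, or begins with Pde directly followed by a number, 37 rows with 36 symbols among the 26145 listed genes, of which 10 are Adcy and 27 are Pde rows. The symbol Pde4d is listed for 2 identifiers, treated separately below. Membership was set by the symbol and used no measured value. The rule also takes in Pde4dip, a scaffold protein of the centrosome and Golgi, and Pde12, a mitochondrial enzyme that removes poly(A) tails, neither of which is a phosphodiesterase of cyclic nucleotides, so they are described apart.

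Of the 15 libraries, 12 came from adult mice (P60 in the study, 8 to 10 weeks in the labels) and 3 from mice of 3 weeks (P21). The adult mice had intravenous self-administration of cocaine or saline and were taken in the maintenance phase, at 48 h of withdrawal or at 15 days of withdrawal, with 2 libraries in each of the 6 groups, named library 1 and library 2 within a group. According to the study the catheters were implanted at P60. Tissue was therefore taken after P60, and later at 15 days of withdrawal than at maintenance, so that phase and age at collection cannot be told apart. P60 below names the adult group. The P21 mice had no self-administration. The tissue of 2 animals was pooled for a library according to the protocol, but the methods state fewer P21 mice than 3 such pools would need. The P21 libraries may therefore share mice, and the p-values of the age comparison then measure the spread between libraries, which may in part be technical. Each library is of a single age, which means that preparation and age cannot be told apart. Saline P60 mice had gone through the saline self-administration procedure and the P21 mice had not, which cannot be told apart from age either.

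The 35360 retained cells (24822 at P60 and 10538 at P21) held between 8375172 and 42892922 unique molecular identifiers (UMIs, one for each captured mRNA molecule) per library, and 0 to 27 cell barcodes were shared between any 2 libraries. The authors' 8 classes were excitatory neurons (Exc), inhibitory neurons (Inhib), astrocytes (Astro), oligodendrocytes (Oligo), newly formed oligodendrocytes (NF Oligo), oligodendrocyte precursors (OPC), microglia and endothelial cells (Endo), and the finer L2 clusters divide these. The defining markers were detected in each class, for example Flt1, Cldn5 and Pecam1 with a summed level of 3881 to 7019 CPM in the endothelial class of a P60 library. The same class also held 4710 to 7773 CPM of 5 mural cell markers and 31226 to 67854 CPM of the hemoglobin genes Hba-a1 and Hbb-b1, so it is not a pure endothelial population. One label names the nucleus accumbens as the tissue, whereas 8 measured markers of striatal projection neurons summed to 60.2 to 445 CPM in inhibitory neurons, and the titles name the PFC. Levels are in CPM, the UMIs of a gene summed over the cells of a class in a library, as a proportion of the UMIs of all genes counted there on the usual CPM scale, as mean ± SD over libraries with at least 10 cells, and in such sums fewer expressing cells and less RNA per cell cannot be told apart.

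Where each enzyme was found at P60 is described first. The levels carry no test, because the classes were made from the same cells. Of the 37 rows, 8 had their highest class mean in excitatory neurons, 4 in inhibitory neurons, 4 in oligodendrocytes, 8 in NF Oligo, 5 in OPC, 2 in microglia and 6 in endothelial cells. Thus 12 of 37 were highest in neurons. These counts include members near the floor and orders that few libraries kept. The 8 highest in NF Oligo exceeded the next class in from 1 (Pde6h and Pde3a) to 10 (Pde9a) of 11 libraries. Pde6b, counted under excitatory neurons, had 4 UMIs at P60. No member was highest in astrocytes, although Pde4b, Pde10a, Pde8b, Adcy2, Pde6d and Pde1a each had a mean above 40 CPM there. Pde1a varied widely between libraries of this class, with 53.8 ± 56.1 CPM in the saline P60 libraries (n = 5).

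Among the cyclases stimulated by calcium and calmodulin, Adcy1 (ENSMUSG00000020431, chr11:6963492-7078509, plus strand, NCBIM37) was a neuronal gene. Its mean in inhibitory neurons was 153 ± 48.0 CPM and in excitatory neurons 148 ± 11.1 CPM (n = 12 libraries), and the order of these classes held in 8 of 12 libraries, so they did not differ beyond their spread. Its lowest level was 9.59 CPM, in oligodendrocytes. Adcy3 was spread more evenly, from 33.4 ± 9.38 CPM in OPC (n = 11) and 27.7 ± 8.20 CPM in inhibitory neurons (n = 12) down to 6.06 CPM in microglia, and OPC exceeded inhibitory neurons in 6 of 11 libraries only. Adcy8, the third of this group, stayed at or below 3.16 CPM in every class.

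Adcy2, Adcy4 and Adcy7, a group stimulated by G protein βγ subunits, divided between cell types. Adcy2 reached 54.5 ± 6.97 CPM in excitatory neurons (n = 12), close to the 47.5 ± 14.5 CPM of astrocytes (n = 11), with the same order in 7 of 11 libraries. Adcy4 was at 75.8 ± 15.1 CPM in endothelial cells and 1.84 ± 4.00 CPM in microglia, the next class, and was higher in endothelial cells in 12 of 12 libraries. Of the calcium-inhibited cyclases, Adcy6 was likewise highest in the mixed endothelial class, at 34.5 ± 8.78 against 7.22 ± 0.879 CPM in excitatory neurons (12 of 12 libraries). Adcy5, the main cyclase of striatal neurons, was here highest in oligodendrocytes, at 43.6 ± 16.0 CPM, with 19.0 ± 2.45 CPM in excitatory neurons (11 of 12 libraries). Adcy9, which is insensitive to forskolin, averaged 25.8 ± 4.02 CPM in excitatory neurons, and endothelial cells followed with 21.03 ± 6.15 CPM (9 of 12 libraries in that order).

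Of the calcium and calmodulin-dependent phosphodiesterases, Pde1a (ENSMUSG00000059173, chr2:79674610-79969632, minus strand) averaged 417 ± 42.1 CPM in excitatory neurons, and the next class, inhibitory neurons, had 102 ± 38.5 CPM (12 of 12 libraries). Its paralog Pde1b was at 33.1 ± 4.28 and 28.5 ± 10.3 CPM in the same classes, which did not differ beyond their spread. Pde1c was at 22.5 ± 11.04 CPM in OPC (n = 11) and 15.4 ± 8.95 CPM in oligodendrocytes. Pde1a and Pde1b thus had their highest mean in excitatory neurons, and Pde1c in OPC.

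Pde2a, whose hydrolysis of cyclic AMP is stimulated by cyclic GMP, was at 176 ± 22.9 CPM in endothelial cells and 97.3 ± 8.01 CPM in excitatory neurons (12 of 12 libraries). Pde3b, which cyclic GMP inhibits, was at 131 ± 26.3 CPM in microglia, whereas the next class, NF Oligo, had 11.6 ± 11.5 CPM (11 of 11 libraries). Both were thus highest outside neurons.

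The cyclic AMP-specific phosphodiesterases are the largest group of members. Pde4b was at 245 ± 38.8 CPM in oligodendrocytes and 119 ± 27.4 CPM in OPC (11 of 11 libraries), with no class below 42.9 CPM on average. Pde4a was neuronal, with 90.6 ± 23.1 CPM in inhibitory and 78.8 ± 10.8 CPM in excitatory neurons (7 of 12 libraries in that order). Pde8a, a high-affinity enzyme, was at 90.1 ± 21.3 CPM in oligodendrocytes and 36.6 ± 7.24 CPM in endothelial cells, and at 0.112 CPM in excitatory neurons. Pde8b was at 53.2 ± 10.4 CPM in endothelial cells and 48.8 ± 4.49 CPM in astrocytes (8 of 11 libraries in that order). The first Pde4d row was at 57.7 ± 22.9 CPM in NF Oligo (n = 11) and 57.4 ± 8.81 CPM in endothelial cells, a difference far inside the spread.

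Of the cyclic GMP-specific enzymes, Pde5a was at 44.4 ± 5.85 CPM in endothelial cells and 26.3 ± 7.76 CPM in inhibitory neurons (12 of 12 libraries), and at 0.545 CPM in excitatory neurons. Pde9a was at 33.4 ± 19.0 CPM in NF Oligo and 10.7 ± 3.49 CPM in inhibitory neurons (10 of 11 libraries). The photoreceptor subunits Pde6a, Pde6b, Pde6c, Pde6g and Pde6h did not pass 3 CPM in any class. Pde6d, by contrast, was found in every class. It encodes a chaperone that binds prenylated proteins such as Ras and Rab family members, and was at 108 ± 65.7 CPM in oligodendrocytes and 89.4 ± 61.9 CPM in NF Oligo, with a spread between libraries that is taken up below.

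Pde10a and Pde11a hydrolyse both nucleotides. Pde10a was at 119 ± 29.8 CPM in OPC (n = 11) and 108 ± 23.0 CPM in inhibitory neurons (6 of 11 libraries in that order). Pde11a was at 32.4 ± 13.2 CPM in inhibitory neurons and at 0.835 ± 1.603 CPM in microglia, the next class (12 of 12 libraries). The 13 other members had a highest class mean between 0.0216 (Pde6b) and 18.8 CPM (Pde4c). Pde4dip was at 71.5 ± 21.8 CPM in NF Oligo and 58.6 ± 23.3 CPM in OPC, and Pde12 at no more than 7.60 CPM in any class.

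**Figure D1:**
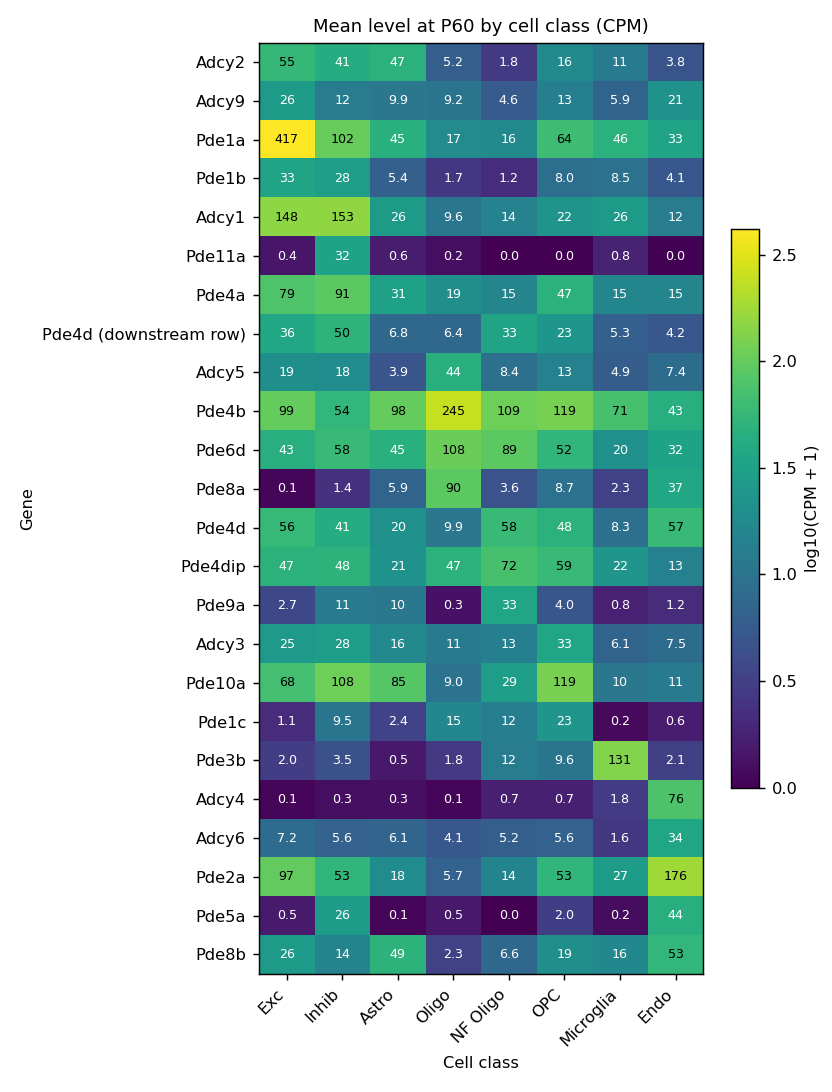
Mean level (CPM over P60 libraries with at least 10 cells of the class) of the 24 members that reach 20 CPM in a class, one row for each gene and one column for each cell class, with colour on a log10 scale of CPM plus 1. Rows are to be read from left to right: Pde1a peaks in excitatory neurons (417), Pde11a in inhibitory neurons (32), Pde3b in microglia (131) and Adcy4 in endothelial cells (76).

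Within the 26 excitatory L2 clusters at P60, some members formed steep patterns and others were nearly even. Pde10a stayed between 37.9 and 83.6 CPM, whereas Adcy2 (ENSMUSG00000021536, chr13:68758920-69138419, minus strand) was at 249.5 ± 41.0 CPM in Exc_21 and 81.9 ± 20.4 CPM in Exc_10, the next cluster, with Exc_21 higher in 12 of 12 libraries. Exc_21 is the cluster with the highest sum of 5 layer 5 markers (Etv1, Fezf2, Bcl11b, Pou3f1 and Tshz2), 3205 CPM over its cells. The same cluster had the lowest level of Pde1a, at 70.6 ± 37.0 CPM, and of the first Pde4d row, at 23.2 ± 5.68 CPM. Pde1a was highest in Exc_22, at 901 ± 72.9 CPM (n = 9), and next highest in Exc_19, at 753 ± 87.5 CPM (8 of 9 libraries in that order).

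Adcy1 was highest in Exc_18, at 327 ± 42.7 CPM (n = 7), and Exc_20, at 296 ± 61.3 CPM (n = 8), which did not differ beyond their spread, followed by Exc_19 at 270.4 CPM. These 3 clusters had the highest sums of the layer 6 markers Foxp2, Syt6 and Tle4, from 380 to 417 CPM. They were also those with the highest levels of the first Pde4d row, at 240.5 ± 52.0, 195 ± 41.7 and 166 CPM. Adcy1 was lowest in Exc_1, at 53.2 ± 20.5 CPM (n = 11), one of the clusters rich in layer 2/3 markers. Pde4a, in turn, was lowest in Exc_2 to Exc_5, from 26.2 to 31.5 CPM, clusters whose layer 2/3 markers (Cux2, Calb1 and Rasgrf2) summed to between 545 and 700 CPM, and highest in Exc_26, at 142 ± 46.2 CPM (n = 8), which did not differ from Exc_18, at 135 ± 25.6 CPM (n = 7), beyond their spread.

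The Pde4d rows behaved differently. The first (ENSMUSG00000021699, chr13:109240142-110743669, plus strand) and the second (ENSMUSG00000074661, chr13:110744317-110746171, plus strand) lie 647 bases apart, and the second begins downstream of the 3′ end of the first, where this 3′ tag method collects its reads. The second row was highest in Exc_23, at 61.4 ± 19.7 CPM, and lowest in Exc_19, at 20.2 ± 7.21 CPM, one of the clusters in which the first row was high. Between classes the first row was highest in NF Oligo and the second in inhibitory neurons, at 50.1 ± 11.1 CPM, and in endothelial cells the rows were at 57.4 ± 8.81 and 4.16 CPM. The rows are therefore given apart throughout, and whether they count ends of a single transcript family was not tested.

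**Figure D2:**
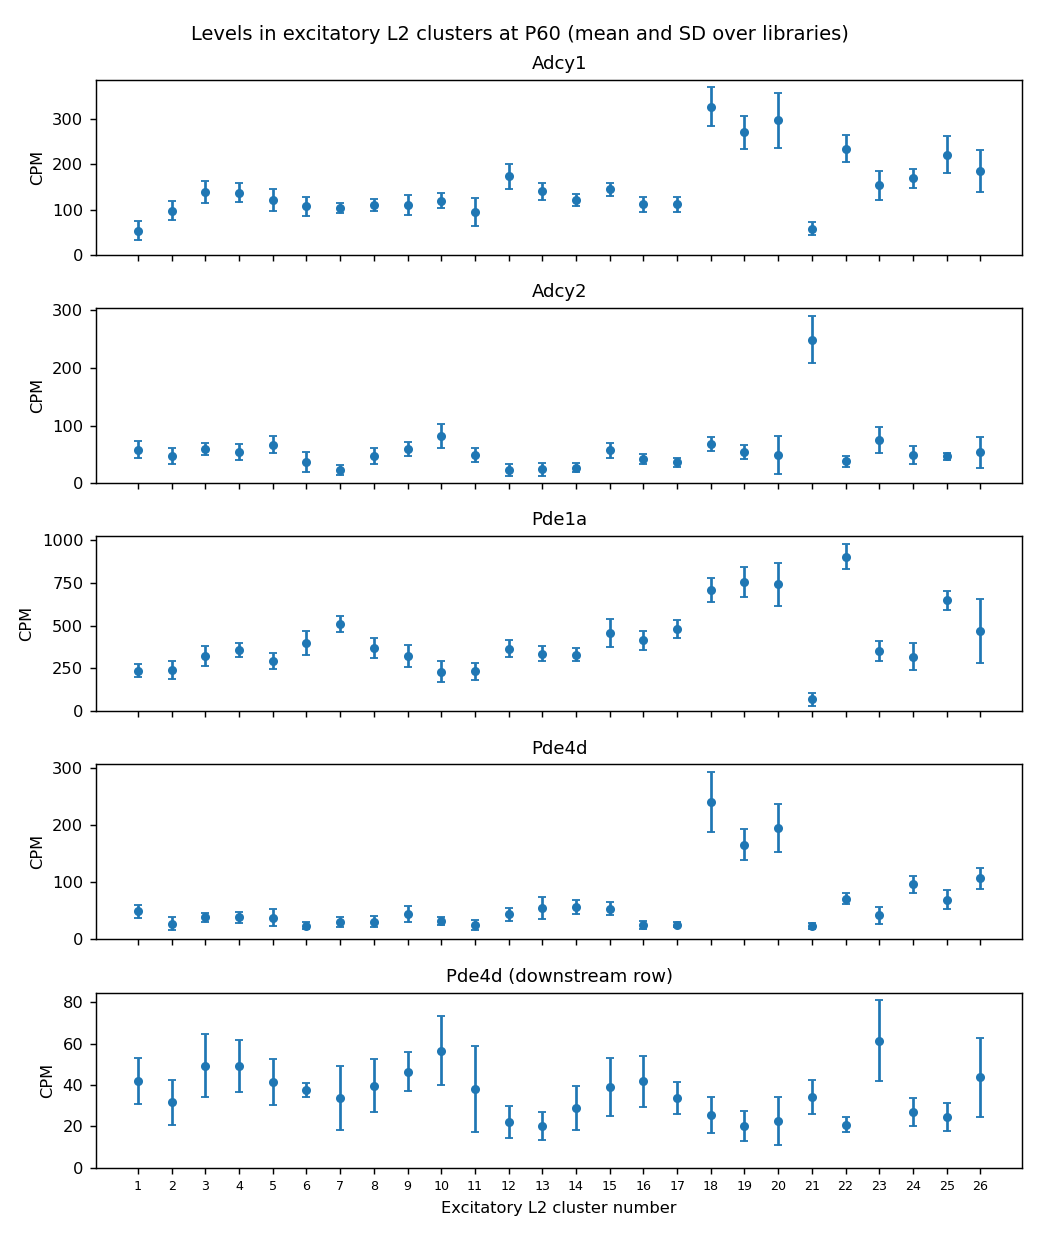
Level (CPM, mean with SD over the P60 libraries with at least 10 cells of the cluster) of Adcy1, Adcy2, Pde1a and the Pde4d rows in the 26 excitatory L2 clusters. Adcy2 stands out in cluster 21 (249.5), where Pde1a is lowest (70.6), and Adcy1 and the first Pde4d row are highest in clusters 18 to 20, which the second Pde4d row does not share.

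Of the inhibitory clusters, 5 had at least 3 P60 libraries with 10 cells. Inhib_7 had the highest levels of Pde11a, at 68.6 CPM, of Adcy1, at 284 ± 43.9 CPM, and of Pde10a, at 153 ± 29.7 CPM (n = 9), together with the lowest of Pde1a, at 28.8 ± 24.4 CPM, and of Adcy2, at 3.24 ± 3.96 CPM. Inhib_2 stood at the other end for Adcy2, with 124 ± 51.5 CPM, and for Pde1a, with 209.9 ± 107 CPM (n = 6), and had the lowest Pde4b, at 21.2 ± 7.94 CPM. Endothelial subclusters also differed. In Endo_5, where the mural marker Vtn reached 6804 CPM, Pde4d and Pde8b were at 106 and 101 CPM over all cells, whereas in Endo_7, with 340 CPM of Vtn, they were at 5.16 and 7.74 CPM. Adcy4 ran the other way, at 46.9 CPM in Endo_5 and 101 CPM in Endo_7, whereas Adcy6 was at 40.5 CPM in Endo_5 and 16.3 CPM in Endo_7. These subcluster values pool the libraries and have no error.

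The starts of 3 genes are shown here because the comparison of ages that follows turns on them: Pde6d had the same sign in every class tested, whereas Adcy1 and Pde8a were called in a single class each. RefSeq lists promoter sequence (250 bases before to 50 after a start, GRCm38.p6) for 27 of the 36 member symbols that were matched, 52 starts in all. The cyclic AMP response element, the 8 letters TGACGTCA on either strand, was in 0 of 52 member promoters and in 588 of 32851 promoters of all genes (1.79%). Its half-site TGACG, which lies within the full element, was in 9 of 52 (17.3%) and in 20.8% of all promoters, in Adcy7, Adcy9, Pde1a, Pde2a, Pde4a, Pde4b, Pde6h, Pde8a and Pde8b. A match or its absence describes these letters in this window and nothing more. The Pde6d start (chr1:86582736-86583035, minus strand) has 7 CG pairs, the median of all promoters being 7, and no half-site. The Adcy1 start (chr11:7063183-7063482, plus strand) has 37 CG pairs and no half-site, and that of Pde8a (chr7:81213015-81213314, plus strand) has 34 CG pairs and 1 half-site, in capitals. They read, from 5′ to 3′, as follows.
Pde6d: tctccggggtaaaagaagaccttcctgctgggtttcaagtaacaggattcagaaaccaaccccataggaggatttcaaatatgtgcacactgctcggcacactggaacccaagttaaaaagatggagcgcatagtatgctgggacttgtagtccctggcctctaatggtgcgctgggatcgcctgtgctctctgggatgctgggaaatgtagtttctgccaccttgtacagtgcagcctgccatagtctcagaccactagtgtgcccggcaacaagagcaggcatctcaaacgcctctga
Adcy1: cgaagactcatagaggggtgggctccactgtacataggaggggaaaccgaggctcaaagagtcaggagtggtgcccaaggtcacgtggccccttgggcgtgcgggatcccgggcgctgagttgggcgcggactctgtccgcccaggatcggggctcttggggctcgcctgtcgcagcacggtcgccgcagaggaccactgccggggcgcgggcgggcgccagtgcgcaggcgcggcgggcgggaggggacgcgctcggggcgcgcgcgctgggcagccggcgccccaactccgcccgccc
Pde8a: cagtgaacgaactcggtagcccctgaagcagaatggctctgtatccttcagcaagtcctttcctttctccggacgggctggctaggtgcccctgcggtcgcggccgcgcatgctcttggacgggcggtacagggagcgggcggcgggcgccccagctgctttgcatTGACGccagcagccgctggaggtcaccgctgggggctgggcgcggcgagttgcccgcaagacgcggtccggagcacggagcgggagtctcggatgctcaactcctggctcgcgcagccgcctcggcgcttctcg

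The next question was which members differ between adolescent and adult cells, so the 3 P21 libraries were compared with the 6 saline P60 libraries. UMI sums were tested with edgeR's quasi-likelihood test, and a member counted as called if its p, adjusted by Benjamini-Hochberg for all genes tested in the class, was below 0.05 and its change exceeded 1.5-fold. Log2 differences are P60 minus P21 with their SE. Of 98 tests of 33 members, 18 were called, 9 higher and 9 lower at P60, in 12 members. In excitatory neurons 5 of 29 members tested were called (2 higher, 3 lower at P60; 19.3% of all genes tested were called), in inhibitory neurons 3 of 21 (2 higher, 1 lower; 14.0% of all genes), in endothelial cells 7 of 22 (4 higher, 3 lower; 12.7%), in oligodendrocytes 2 of 6 (1 higher, 1 lower; 17.8%) and in NF Oligo 1 of 6 (lower; 1.94%). In astrocytes 0 of 9 were called (1.11% of all genes; 1 of 9 at an unadjusted p below 0.05) and in microglia 0 of 5 (0.726%; 0 of 5 at an unadjusted p below 0.05). The P21 precursors, 41 cells, were too few to test. In both neuronal classes the share of members called lay near that of all genes and in endothelial cells above it, a difference that was not tested, and in the remaining classes at most 9 members were tested.

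The members Pde3a, Pde6b, Pde6g and Pde6h did not pass the filter on low counts in any class. Pde6d was called in 5 classes, and the other 13 calls were of other members. The median log2 difference of the members was -0.14 in excitatory neurons, -0.02 in inhibitory neurons and 0.04 in endothelial cells, and the medians of all genes tested in these classes lay within 0.01 of 0.

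The lowest adjusted p was that of Adcy1 in excitatory neurons. The P21 libraries held 226, 241 and 236 CPM and the saline P60 libraries 153, 135, 143, 149, 166 and 145 CPM, in the order maintenance, 48 h and 15 days with library 1 before library 2, which is kept below. Every P60 library was below every P21 library, and the level fell by 0.60 ± 0.07 on the log2 scale (adjusted p = 6.97e-05). The fall stayed between 0.57 and 0.63 in 19 alternative settings but was not called in 5 of them, which were no filter on low counts, at most 100 cells a library, the saline libraries of 15 days alone, and the removal of P21 library 2 or of the second saline library of 15 days. The cells also differed in cluster makeup: Exc_18 and Exc_20, rich in Adcy1, were 6.34% and 8.34% of the excitatory neurons at P21 and 1.85% and 1.40% in the saline P60 libraries. Within clusters, Adcy1 was lower at P60 in 27 of 28 tested and called in 3 of them, Exc_1, Exc_5 and Exc_7. In Exc_1 the mean was 188 ± 7.90 CPM at P21 (n = 3) and 53.2 ± 20.5 CPM over all P60 libraries (n = 11), with a log2 difference of -1.66 ± 0.22 (adjusted p = 2.36e-06), whereas in Exc_23 it was 0.23 ± 0.17 (adjusted p = 0.428). In inhibitory neurons the class-wide difference was 0.27 ± 0.22 (adjusted p = 0.422), and it differed from that of excitatory neurons by 0.85 ± 0.20 (adjusted p = 0.0243), a call lost in 6 of 10 alternative settings, each of them the removal of a library (P21 library 2 or 3, either saline library of 15 days, the second of 48 h or the first of maintenance). In the inhibitory clusters tested Adcy1 was lower at P60, at -0.42 ± 0.26 in Inhib_2 (adjusted p = 0.525) and -0.25 ± 0.18 in Inhib_7 (adjusted p = 0.512), neither called, while the Adcy1-rich Inhib_7 was 7.90% of inhibitory cells at P21 and 35.7% in the saline P60 libraries.

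Pde6d (ENSMUSG00000026239, chr1:88439569-88479204, minus strand) was lower at P60 in every class tested, and called in 5 of 7. In excitatory neurons the P21 libraries had 127, 120.4 and 95.4 CPM and the saline P60 libraries 28.2, 42.9, 25.8, 23.2, 22.0 and 62.4 CPM, a fall by 1.67 ± 0.33 on the log2 scale (adjusted p = 0.00436). In inhibitory neurons the values were 147, 122 and 106 CPM against 59.4, 30.9, 45.4, 37.8, 34.1 and 73.9 CPM (-1.45 ± 0.21, adjusted p = 0.000254). In endothelial cells they were 93.0, 65.9 and 61.6 CPM against 22.8, 30, 27.5, 22.8, 16.4 and 37.7 CPM (-1.62 ± 0.22, adjusted p = 0.000183). In each of these classes the second saline library of 15 days was the highest of the saline P60 libraries and still lay below all P21 libraries. The cocaine libraries of 15 days, which are not in this comparison, reached into the P21 range. They had 137 and 121 CPM in inhibitory neurons and 67.2 and 62.0 CPM in endothelial cells. In excitatory neurons they had 98.3 and 90.7 CPM, the second of them below all P21 libraries.

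In oligodendrocytes Pde6d was at 341, 279 and 252 CPM at P21 and at 53.3, 90.1, 55.2, 77.2, 59.2 and 161 CPM in saline P60 libraries (-1.92 ± 0.30, adjusted p = 0.000970). In NF Oligo the means were 196 ± 20.1 (n = 3) and 69.9 ± 34.8 CPM (n = 5), a log2 difference of -1.51 ± 0.32 (adjusted p = 0.0220), which was not called without the first saline library of 15 days or the second of 48 h, or with at least 30 cells a library. In astrocytes (-1.83 ± 0.51, adjusted p = 0.135) and microglia (-1.37 ± 0.70, adjusted p = 0.502) the difference had the same sign and was not called. Over the L2 clusters, Pde6d was lower at P60 in 28 of 28 tested and called in 27, with log2 differences from -2.28 to -1.25. With the 15 days saline libraries alone as the P60 side, 3 class calls of Pde6d were lost (Exc, Oligo and NF Oligo), and with the 12 P60 libraries, cocaine included, those in inhibitory neurons and NF Oligo, while the sign stayed the same.

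Pde4b (ENSMUSG00000028525, chr4:101760148-102279864, plus strand) went in opposite directions in different cells. In inhibitory neurons it was at 21.5, 26.2 and 23.2 CPM at P21 and 59.4, 44.7, 62.7, 51.4, 54.2 and 64.9 CPM in saline P60 libraries, 1.25 ± 0.17 higher on the log2 scale (adjusted p = 0.000143). In endothelial cells it was at 78.1, 65.9 and 71.0 CPM at P21 and 42.3, 32.0, 39.6, 37.2, 61.8 and 45.7 CPM at P60, a fall by 0.85 ± 0.15 (adjusted p = 0.00136). Neither pair of groups overlapped, and the endothelial call was lost with at most 100 cells a library. Excitatory neurons had 75.4 ± 4.13 CPM at P21 and 99.8 ± 6.35 CPM at P60 (0.47 ± 0.08, adjusted p = 0.000487), short of 1.5-fold, and oligodendrocytes 239 ± 15.0 and 234 ± 24.7 CPM. Compared with excitatory neurons directly, the age difference was larger by 0.76 ± 0.16 in inhibitory neurons (adjusted p = 0.000733) and differed by -1.35 ± 0.18 in endothelial cells (adjusted p = 0.000122).

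The inhibitory cells of both ages had different cluster makeup, which touches each result in that class. Inhib_2, with the lowest Pde4b, was 341 of 962 inhibitory cells (35.4%) at P21 and 44 of 563 (7.82%) in the saline P60 libraries, and Inhib_7 was 7.90% and 35.7%. The sum of 5 measured interneuron markers (Sst, Pvalb, Vip, Reln and Cck) was 16040 to 16859 CPM at P21 and 4710 to 11492 CPM in saline P60 libraries. Within Inhib_7 the log2 difference of Pde4b was 1.02 ± 0.47 (adjusted p = 0.255) and that of the first Pde4d row 0.28 ± 0.52 (adjusted p = 0.848), neither called, and Inhib_2 had 17.8 ± 6.57 CPM of Pde4b at P21 (n = 3) and 21.2 ± 7.94 CPM over the P60 libraries (n = 6). The part of the makeup in the class-wide differences was not tested further.

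Pde4d, another cyclic AMP-specific enzyme, fell with age in endothelial cells. Its first row was at 98.7, 91.5 and 81.5 CPM at P21 and at 64.0, 48.0, 57.5, 63.6, 77.8 and 52.6 CPM in saline P60 libraries, a fall by 0.73 ± 0.13 (adjusted p = 0.00152), with no overlap. In inhibitory neurons this row was higher at P60 by 0.65 ± 0.22 (adjusted p = 0.0418), with 22.2 ± 3.74 against 37.8 ± 9.97 CPM, and there the groups overlapped and the call was lost in 14 of 19 alternative settings. The second row did not share this rise. It was at 61.9 ± 7.99 CPM at P21 and 58.0 ± 5.04 CPM in saline P60 inhibitory neurons (-0.11 ± 0.15, adjusted p = 0.655). In endothelial cells the second row differed by -0.79 ± 0.43 (adjusted p = 0.245), also not called.

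Other endothelial members rose. Pde4c, the last PDE4 gene, was at 7.27, 4.62 and 6.08 CPM at P21 and at 29.7, 14, 8.30, 16.8, 20.3 and 20.2 CPM at P60 (1.41 ± 0.33, adjusted p = 0.00772). Pde2a went from 100.3 ± 32.3 to 178 ± 12.7 CPM (0.68 ± 0.16, adjusted p = 0.00826) and Adcy6 from 19.7 ± 3.10 to 34.4 ± 9.19 CPM (0.63 ± 0.20, adjusted p = 0.0394). No P21 library overlapped a saline P60 library for these 3 genes. The call of Pde2a was lost in 3 of 19 alternative settings (without P21 library 2 or 3, or with the saline libraries of 15 days alone). That of Adcy6 was lost in 8 of 19: with DESeq2, with at most 100 cells a library, with the saline libraries of 15 days alone or without them, and without P21 library 2 or 3, the first saline library of 15 days or the first of maintenance.

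Pde1a in endothelial cells (0.94 ± 0.24, adjusted p = 0.0146; 15.3 ± 3.26 against 31.7 ± 10.5 CPM) depended on which deposited label defined the class. By the L2 label the 2032 P21 endothelial cells held 127 Pde1a UMIs, and by the deposited cell type 2047 cells held 338, after which the log2 difference was -0.25. Without P21 library 2 or 3, without the saline libraries of 15 days or with at most 100 cells a library it was not called either. The summed level of 4 excitatory markers in the endothelial class was 73.5 to 178 CPM at P21 and 22.0 to 231 CPM in saline P60 libraries. Beside all endothelial results stand hemoglobin sums of 79286 to 102890 CPM at P21 and 41615 to 67854 CPM in saline P60 libraries, and mural marker sums of 4280 to 5294 and 5453 to 7773 CPM. Their part in the results was not tested.

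In oligodendrocytes, Pde8a (ENSMUSG00000025584, chr7:88358482-88479419, plus strand) rose. It was at 44.5, 32.4 and 39.6 CPM at P21 and at 122, 67.6, 133, 60.7, 83.7 and 83.7 CPM in saline P60 libraries (1.16 ± 0.25, adjusted p = 0.00312), without overlap, and the call stood in 19 of 19 alternative settings. Beside it, markers of newly formed oligodendrocytes summed to 202 to 212 CPM in the oligodendrocyte class at P21 and to 89.8 to 195 CPM in saline P60 libraries. In endothelial cells, the other class rich in Pde8a, the log2 difference was -0.25 ± 0.16 (adjusted p = 0.323).

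In excitatory neurons 3 further members were called. Pde1b was at 26.7, 20.9 and 17.8 CPM at P21 and at 42.7, 27.7, 27.8, 29.7, 34.3 and 33.8 CPM in saline P60 libraries (0.62 ± 0.14, adjusted p = 0.00388), groups that lay close without overlapping, and it was not called without P21 library 3 or the first saline maintenance library, or with at most 100 cells a library. Pde7b, a cyclic AMP-specific enzyme, was at 1.64, 0.780 and 0.939 CPM at P21 and at 4.25, 2.54, 1.97, 2.63, 2.80 and 2.17 CPM at P60 (1.20 ± 0.28, adjusted p = 0.00470). Pde5a was at 1.15 ± 0.216 and 0.542 ± 0.158 CPM (-1.05 ± 0.31, adjusted p = 0.0156), a call lost without P21 library 2, with the saline libraries of 15 days alone or with the deposited cell type as class. The call of Pde7b was also lost with the saline libraries of 15 days alone. The last 2 are changes of genes at a few CPM. The summed level of 12 immediate early genes, which respond to activity and to dissociation, was 1040 to 1123 CPM at P21 and 416 to 619 CPM in saline P60 excitatory neurons, and its part in these results was not tested.

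**Figure D3:**
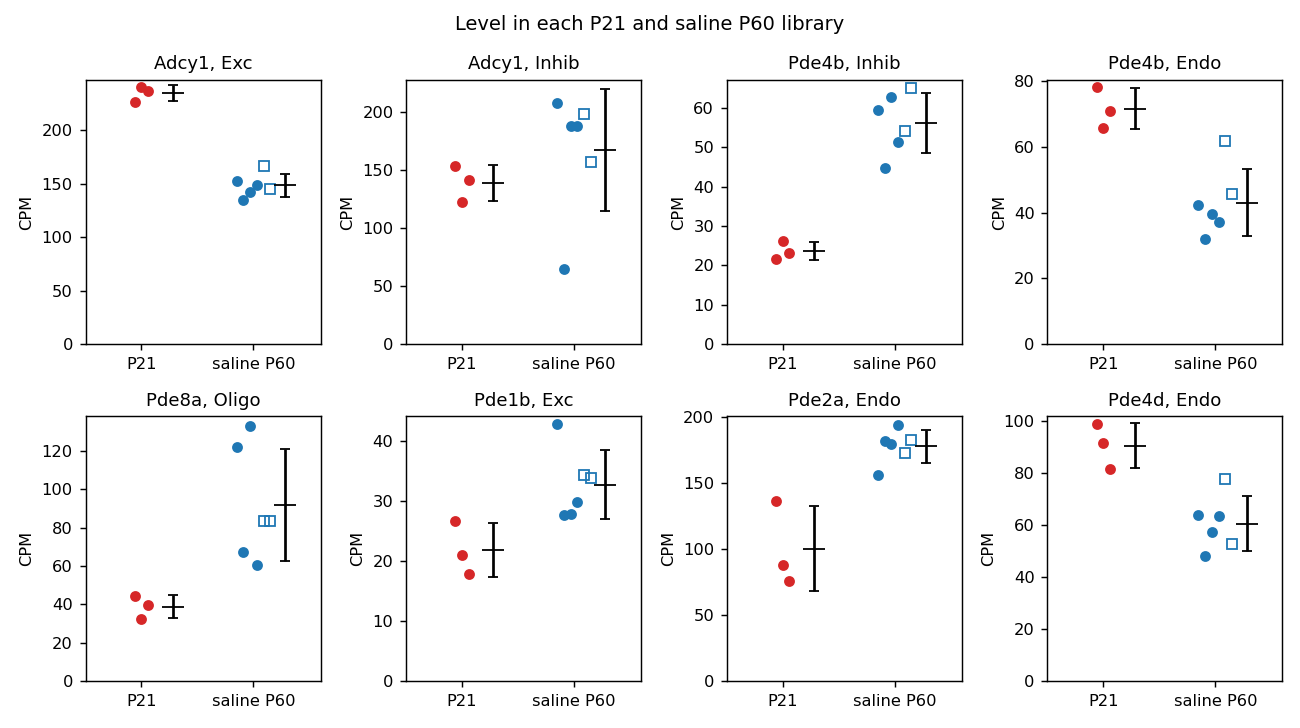
Level (CPM) in each P21 library (red circles) and each saline P60 library (blue circles, with open squares for 15 days of withdrawal) for 8 combinations of gene and cell class, with mean and SD in black beside the points. Adcy1 in excitatory neurons and Pde4b in endothelial cells lie lower at P60, and Pde4b in inhibitory neurons and Pde8a in oligodendrocytes higher, without overlap, whereas Adcy1 in inhibitory neurons overlaps.

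In the 29 neuronal L2 clusters that could be tested for age, 54 of 423 member tests were called (12.8%, against 10.6% of all tests of genes in clusters), 12 higher and 42 lower at P60, in 14 of 20 members tested. Pde6d, the chaperone described above, accounted for 27 of these in 28 clusters tested, and the other members for 27. That the share lay above that of all genes thus rests on Pde6d. Pde1a was higher at P60 in 27 of 27 clusters tested and called in 10. Of the 27 clusters 26 were excitatory, and the other was Inhib_2 (0.15 ± 0.26, adjusted p = 0.858). In the called clusters the log2 differences were 0.62 to 1.01, the largest being 1.01 ± 0.14 in Exc_17 (adjusted p = 1.73e-05). Over all excitatory neurons Pde1a had a log2 difference of 0.40 ± 0.11 (adjusted p = 0.00958), under the fold required. Over all inhibitory neurons it had the opposite sign, at -0.39 ± 0.21 (adjusted p = 0.217), and was not called. Adcy1 and Pde10a were called in 3 clusters each, and the Pde10a calls, in Exc_1, Exc_5 and Exc_15, were all lower at P60 (-1.01 to -0.68), while the sign over 29 clusters was mixed, with 10 higher and 19 lower.

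**Figure D4:**
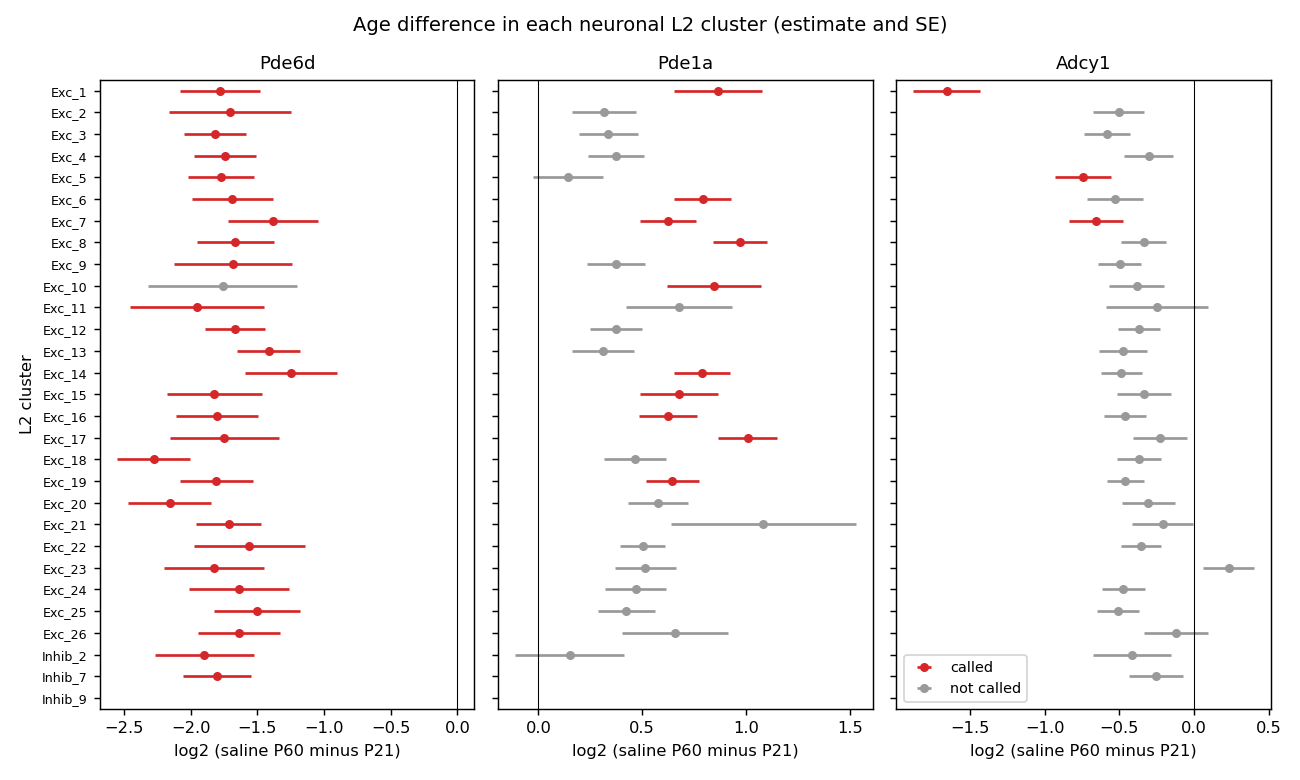
Log2 difference between saline P60 and P21 (estimate with SE; negative values are lower at P60) of Pde6d, Pde1a and Adcy1 in each neuronal L2 cluster, with called clusters in red. Pde6d lies left of 0 in 28 of 28 clusters, Pde1a right of 0 in 27 of 27, and Adcy1 left of 0 in 27 of 28 with its largest difference in Exc_1.

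Whether the age difference of a member in other classes differed from that in excitatory neurons was tested directly, with the library as a block. Of 163 tests, 15 were called (11 above and 4 below the excitatory difference), against 4.54% of all genes tested. The calls include Pde8a in oligodendrocytes and endothelial cells, from which nothing is read, because Pde8a was at 0.222 to 0.561 CPM at P21 and 0 to 0.201 CPM in saline P60 excitatory neurons and did not pass the filter on low counts there. Pde2a differed in endothelial cells by 0.67 ± 0.13 (adjusted p = 0.00297). In inhibitory neurons Pde4b and the first Pde4d row were above the excitatory difference in 10 of 10 alternative settings. None of these settings held cluster makeup fixed. By edgeR the first Pde4d row had a log2 difference of -0.40 ± 0.12 over all excitatory neurons (adjusted p = 0.0197). It was higher at P60 in 17 of 26 neuronal clusters tested. Exc_18 and Exc_20, rich in this row, were 6.34% and 8.34% of the excitatory neurons at P21. In the saline P60 libraries they were 1.85% and 1.40%. The part of this makeup was not tested. In inhibitory neurons the second Pde4d row differed from the excitatory difference by -0.07 ± 0.15 (adjusted p = 0.841). Pde1a was below the excitatory difference, a call lost in 2 of 10, while the calls of Adcy1 and Pde9a (above) and Pde8b (below) were each lost in 6 of 10.

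The study also compared cocaine with saline at each phase of self-administration, and the members were followed here in that comparison. At the maintenance phase edgeR called 0 of 87 member tests over classes (0.0115% of all tests were called; 2 of 87 at an unadjusted p below 0.05; DESeq2 called 0) and 0 of 272 over L2 clusters (0.0126%; 23 at an unadjusted p below 0.05; DESeq2 0). At 48 h of withdrawal it called 0 of 114 (0.00826%; 7 at an unadjusted p below 0.05; DESeq2 0) and 0 of 353 (0.00949%; 26; DESeq2 0). Over all phases together edgeR called 0 of 87 (0.00689%; 5 at an unadjusted p below 0.05), and for a difference of the cocaine effect between phases 0 of 261 (0.00612%; 13 at an unadjusted p below 0.05). The DESeq2 counts of these comparisons are not given here. A p above the threshold does not show equal levels. With 2 libraries a group the SE varied between members and classes. For Pde6d in excitatory neurons at 48 h it was 0.52 on the log2 scale. For Adcy1, in the difference between the 48 h and maintenance effects, it was 0.16 in excitatory and 0.48 in inhibitory neurons.

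At 15 days of withdrawal 1 of 114 tests over classes was called (0.339% of all tests; 9 at an unadjusted p below 0.05) and 16 of 505 over L2 clusters (1.06%; 48 at an unadjusted p below 0.05). All but 1 of these member calls concerned Pde6d. The calls of all genes at 15 days also went mostly upward with cocaine. They were 93 higher and 0 lower in excitatory neurons, 54 and 19 in inhibitory neurons and 14 and 0 in endothelial cells. In oligodendrocytes they were 17 and 0, and in astrocytes 0 and 1. In inhibitory neurons Pde6d was at 137 and 121 CPM in the cocaine and at 34.1 and 73.9 CPM in the saline libraries, 1.33 ± 0.29 higher on the log2 scale (adjusted p = 0.0348). It was higher in 34 of 34 clusters tested at this phase and called in 15 (14 excitatory clusters and Inhib_7), by 1.20 to 2.1 on the log2 scale. The other call was Pde1a in Inhib_7, with a log2 difference of -1.31 ± 0.35 (adjusted p = 0.0445). It was lost in 6 of 12 removals of a library (each of the 4 libraries of 15 days, the second cocaine maintenance library and the second saline library of 48 h), with values from -1.64 to -0.87.

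The remaining classes had Pde6d differences of the same sign at 15 days that were not called. They were 1.26 ± 0.29 in endothelial cells (adjusted p = 0.0952), 1.46 ± 0.45 in NF Oligo (0.553), 1.36 ± 0.45 in OPC (0.766), 1.22 ± 0.47 in excitatory neurons (0.580), 1.13 ± 0.44 in oligodendrocytes (0.771), 1.13 ± 0.76 in astrocytes and 0.77 ± 0.71 in microglia (1.00). At 48 h the excitatory difference was 0.21 ± 0.52 and at maintenance -0.08 ± 0.53. The difference between the 15 days and 48 h effects was 1.01 ± 0.69 in excitatory neurons (adjusted p = 0.999), so that the phases were not shown to differ.

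The result for Pde6d, like that for Pde1a, rests on individual libraries. In excitatory neurons the cocaine libraries of 15 days had 98.3 and 90.7 CPM, the second saline library of 15 days 62.4 CPM and the first 22.0 CPM, and the remaining P60 libraries of both treatments 23.2 to 44.6 CPM. In oligodendrocytes the values were 242 and 220 CPM, 161 CPM and 59.2 CPM, with 53.3 to 124 CPM in the remaining libraries. In endothelial cells they were 67.2 and 62.0 CPM, 37.7 CPM and 16.4 CPM, with 17.8 to 33.2 CPM in the others. The cocaine libraries of 15 days were the highest P60 libraries in 7 of 8 classes, and together with the second saline library the 3 highest in 6 of 8, the exceptions being astrocytes and OPC. The second saline library of 15 days lay above the first in 8 of 8 classes. Without the first saline library of 15 days Pde6d was called in 1 of the 15 clusters and the inhibitory log2 difference was 0.81 and not called, and without the second it was 1.93, with calls of Pde6d in 28 clusters, all 15 among them. Without the first or the second cocaine library of 15 days Pde6d was called in 6 and in 10 of the 15 clusters. The inhibitory call was also lost without either cocaine library of 15 days, either saline library of 48 h or the first saline maintenance library, and under DESeq2, which called 0 members at 15 days in classes and in clusters. The libraries of 15 days held 2512 to 3784 retained cells each and the other P60 libraries 1055 to 1830, and whether this has a part in the result was not tested.

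**Figure D5:**
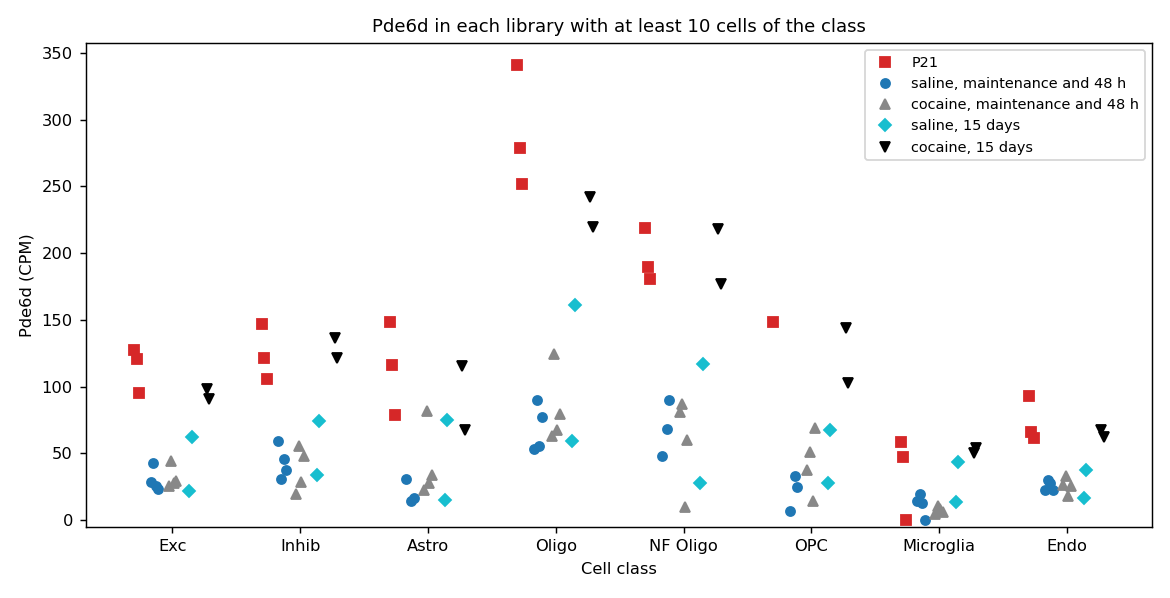
Level of Pde6d (CPM) in every library with at least 10 cells of a class, by cell class, with symbols for P21, for saline and cocaine at maintenance and 48 h together, and for saline and cocaine at 15 days. P21 libraries and the cocaine libraries of 15 days lie highest in most classes, and the saline libraries of 15 days lie apart from each other, at 22.0 and 62.4 in excitatory neurons.

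Other genes of the pathway were taken from a list of 52 (G proteins, protein kinase A subunits and anchors, Epac and CREB family members, cyclic nucleotide-gated and HCN channels, and the cyclic GMP branch). With age, 6 of 49 tested in excitatory neurons were called (2 higher, 4 lower at P60, against 19.3% of all genes), 7 of 40 in inhibitory neurons (1 higher, 6 lower, against 14.0%), 6 of 39 in endothelial cells (4 higher, 2 lower, against 12.7%), 1 of 16 in oligodendrocytes (lower, against 17.8%), and by edgeR 0 of 27 in astrocytes (1.11%), 0 of 14 in microglia (0.726%) and 0 of 15 in NF Oligo (1.94%). These shares were not tested against each other. The lowest adjusted p was that of Prkar2b, a regulatory subunit of protein kinase A, in excitatory neurons (-0.75 ± 0.11; 0.000199). It was followed there by Ppp1r1b, the protein phosphatase inhibitor DARPP-32 (-0.86 ± 0.13; 0.000228), and by Gnaz, an inhibitory G protein α subunit (-0.64 ± 0.10; 0.000341), which also fell in inhibitory neurons (-0.92 ± 0.16; 0.000753). Crem, a CREB family gene, fell in endothelial cells (-0.83 ± 0.13; 0.000562) and Prkacb, a catalytic subunit of protein kinase A, in inhibitory neurons (-0.99 ± 0.17; 0.00117). In the cocaine comparisons edgeR called 0 of 174 tests of this list in the 5 classes tested at maintenance (0.0115% of all tests; 12 at an unadjusted p below 0.05), 0 of 245 in 8 classes at 48 h (0.00826%; 8) and 0 of 245 in 8 classes at 15 days (0.339%; 10). DESeq2 called 1, Ppp1r1b in excitatory neurons at 15 days (1.00 ± 0.28 on the log2 scale, adjusted p = 0.0251, against 0.220 by edgeR). Without the filter on low counts edgeR called this one, Pkib, an inhibitor of protein kinase A, there (0.60 ± 0.13, adjusted p = 0.000341) and Nos1, the neuronal nitric oxide synthase, in inhibitory neurons at 48 h (-1.28 ± 0.30, adjusted p = 0.0118).

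Some members overlap or adjoin other genes. In the annotation 4 members overlap another gene on the same strand and 10 on the opposite strand. On either strand, 4 have another gene within 300 bases of their 3′ end (Pde12 and Arf4, Pde1b and Ppp1r1a, Adcy3 and Cenpo, and Pde6g and Tspan10). Arf4 and Cenpo lie on the strand opposite to their member. Pde2a, Pde7b, the first Pde4d row and Adcy9 are those that overlap on the same strand. Whether any reads were shared with these genes was not tested.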

How the data were processed

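Single-cell libraries were made from dissociated PFC on the 10x Genomics droplet platform, and 3′ ends of mRNA were counted. The authors aligned reads to the mouse genome mm9 with Ensembl release 67 genes and deposited UMI counts per gene and barcode for each library, made with Cell Ranger. They also deposited a table of retained cells with the class and L2 cluster, found with Seurat 2.1.0 after removal of cells by gene number, mitochondrial share and presumed doublets, in which the mitochondrial value is a fraction of the UMIs. No further doublet call was made here.

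Deposited counts were summed over the retained cells of each library and class, or L2 cluster, where at least 10 cells were present. The class of a cell was that of its L2 cluster, which differed from the deposited cell type in 492 cells. CPM were computed over 25992 genes, after leaving out 13 mitochondrial and 140 ribosomal protein genes. Sums were tested with edgeR 4.0.16 (R 4.3.3; filterByExpr, TMM, robust quasi-likelihood fit), and p-values were adjusted by Benjamini-Hochberg over all genes tested. Calls needed an adjusted p under 0.05 together with more than 1.5-fold change in either direction. For age the 3 P21 libraries were set against the 6 saline P60 libraries, which needed at least 2 libraries a group, and for cocaine the 12 P60 libraries were fitted together, each of the 6 groups having its own mean. The SE is that of the log2 change derived from the F statistic. The fit was tested on simulated data.

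Libraries, not cells, were the replicates. Replicate numbers were given in accession order and pair nothing. Alternatives were DESeq2 1.42.0, its size factors, no filter on low counts, no fold cutoff, at least 30 cells, at most 100 cells, the deposited cell type as class, other sets of P60 libraries, no library block and leaving out each library. The age comparison without the saline libraries of 15 days was added after seeing the data. The members and lists were chosen with earlier results of these data known. Values per library are given for the members called by class (at most 12 for age, by adjusted p), the 3 members called in most clusters are named, and levels are named from 20 CPM in a class. The joined expression table holds the same libraries and was not used. Gene positions are those of NCBIM37, and promoter sequences are those of RefSeq on GRCm38.p6.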

Additional observations from a re-analysis of the deposited data

Results flagged for a closer look

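In a check of each group of saline P60 libraries for a library far from the others, 2 of 18 combinations of gene and class stood out, and chance gives about 1 in 20. Pde6d in oligodendrocytes was at 161 CPM in the second saline library of 15 days and at 53.3 to 90.1 CPM in the others. Pde7b in excitatory neurons was at 4.25 CPM in the first saline maintenance library and at 1.97 to 2.80 CPM in the others.

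The remaining entries are the 15 age differences (saline P60 minus P21) that differed from that of the same gene in excitatory neurons, by edgeR's quasi-likelihood test with the library as a block. All values are differences of log2 differences with their SE. In inhibitory neurons they were 2.29 ± 0.73 for Adcy10, the soluble cyclase (adjusted p = 0.0312), 1.23 ± 0.40 for Pde9a (adjusted p = 0.0322), 0.96 ± 0.21 for the first Pde4d row (adjusted p = 0.00126), 0.85 ± 0.20 for Adcy1 (adjusted p = 0.0243) and 0.76 ± 0.16 for Pde4b (adjusted p = 0.000733). Pde8b, at -0.66 ± 0.22 (adjusted p = 0.0425), and Pde1a, at -0.79 ± 0.17 (adjusted p = 0.0119), went the other way. Adcy10 is a low gene there, with 0.560 to 1.01 CPM at P21 and 2.1 to 7.42 CPM in saline P60 libraries. Adcy10 did not pass the filter on low counts in that class, so its own age difference was not tested there, and nothing is read from this call. The calls of Adcy10, Pde9a, Pde8b and Adcy1 were each lost in 6 of 10 alternative settings, among them the removal of P21 library 2 or 3 and of the first saline library of 15 days for all 4, and no library block for Adcy10 and Pde8b. That of Pde1a was lost in 2 of 10, and those of Pde4d and Pde4b in 0 of 10. The different cluster makeup of inhibitory cells at the 2 ages, given with the Pde4b result, stands beside all 7, as does that of the excitatory neurons they are compared with.

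In endothelial cells the values were 1.76 ± 0.54 for Pde8a (adjusted p = 0.0403), 0.87 ± 0.23 for Pde4dip (adjusted p = 0.0166), 0.67 ± 0.13 for Pde2a (adjusted p = 0.00297), 0.60 ± 0.19 for Adcy6 (adjusted p = 0.0405), -1.22 ± 0.38 for Pde7b (adjusted p = 0.0403) and -1.35 ± 0.18 for Pde4b (adjusted p = 0.000122). Pde8a differed by 3.05 ± 0.58 in oligodendrocytes (adjusted p = 0.000213). Pde8a was below 1 CPM in excitatory neurons and did not pass the filter on low counts there, so both of its values compare with an age difference that was not measurable, and nothing is read from them. The endothelial calls were lost in 8 of 10 alternative settings for Pde7b, 7 of 10 for Adcy6 and 7 of 10 for Pde8a, in 1 of 10 for Pde2a (no library block, which also ended those of Pde7b and Adcy6), and in 0 of 10 for Pde4dip and Pde4b. Pde10a differed by 2.02 ± 0.53 in NF Oligo (adjusted p = 0.00848), where the P21 libraries held 5.29, 18.0 and 0 CPM, and the call was lost in 3 of 10 settings, the removal of P21 library 1 or 3 or of the first saline library of 15 days.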

How the results depend on the processing

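No paired analysis was possible because the replicate numbers follow the accession order and tie no library of one group to a library of another. The 18 age calls in classes came to 10 with at most 100 cells a library, and to 12 to 20 without a library. The 54 age calls in clusters came to 32 with all 12 P60 libraries, 27 with at least 30 cells and 30 with the saline libraries of 15 days alone, and to 42 to 52 without a library. At 15 days the 1 cocaine call in classes became 0 with DESeq2, 0 with at least 30 cells and 5 with no filter on low counts, and 0 to 6 without a library. The 16 in clusters became 0 with DESeq2 and 1 to 28 without a library. Over all phases leaving out a library gave 0 to 2 calls, and for the difference between phases 0 to 4, with 2 where low counts were not filtered. The 15 differences from excitatory neurons came to 6 to 14 without a library and 10 with no library block. The 12 members highest in neurons came to 11 to 13 without a library and 16 in the P21 libraries. Pde1a in endothelial cells reversed to -0.25 with the deposited cell type. Of single-gene values under an alternative, 396 kept sign and side of the threshold and 110 lost the call with the same sign. The cause of these changes was not tested, apart from the fewer cells or libraries that a setting leaves. Calls of Pde4b in inhibitory neurons, Pde4c, the first Pde4d row and Pde6d in endothelial cells and Pde8a in oligodendrocytes stood in all alternatives run for them. None of these alternatives held the cluster makeup of a class fixed. Within Inhib_7 the Pde4b difference of 1.02 ± 0.47 was not called. Few members passed the filter on low counts in microglia (5) and in both oligodendrocyte classes (6 each), and the others could not be tested there at this depth.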

Other observations

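Within the endothelial class, members divided by subcluster at P60, as values over all cells of a subcluster with no error. Adcy5 was at 34.9 CPM and Pde10a at 33.7 CPM in Endo_2, where the smooth muscle gene Acta2 reached 935 CPM. Pde4c was at 33.3 CPM in Endo_1 and 6.88 CPM in Endo_7. Adcy4 was at 124 CPM in Endo_12 and at 27.99 CPM in Endo_13, in which Hbb-b1, a hemoglobin gene, was at 264799 CPM.

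In cluster-wise age tests by edgeR's quasi-likelihood test, other members, Pde4dip among them, were called in few clusters each. Adcy9 was higher at P60 in Exc_13 by 0.81 on the log2 scale, and Pde4b in Exc_19 by 0.98. Lower values at P60 were found for the cyclases Adcy3 in Exc_24 (-0.93), Adcy5 in Exc_25 (-0.68) and Adcy6 in Exc_25 (-0.91), and for Pde4dip in Exc_14 (-0.63), Pde4d in Exc_6 (-1.14) and Exc_7 (-1.02), Pde7a in Exc_22 (-1.28), Pde4a in Exc_4 (-1.17) and Pde2a in Exc_6 (-0.70). Pde4d (first row) was nevertheless higher at P60 in 17 of 26 clusters tested, and Pde2a lower in 13 of 28, Pde4a in 18 of 28, Pde7a in 11 of 15, Pde4dip in 25 of 28, Adcy3 in 13 of 23, Adcy5 in 15 of 17 and Adcy6 in 1 of 2, while Adcy9 was higher in 17 of 18 and Pde4b in 26 of 27.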
